A study of Mus musculus with 8 samples.

Results

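The regulator genes *Six2*, *Six4*, *Six5*, *Eya1*, *Eya2*, *Eya3*, *Eya4* and *Pax3* were followed as C2C12 myoblasts left proliferation for differentiation. These 8 genes were taken by name and Entrez identifier from the 27179 rows of the deposited expression table, and their m6A peaks were read from the 4 deposited peak lists. C2C12 is an immortalized mouse myoblast line (an established line from ATCC, used here at low passage on collagen). GM samples were grown in medium with 10% fetal bovine serum to about 50% confluence. 3d DM samples had spent 3 days in 2% horse serum, after a switch at over 90% confluence. Serum source, serum level, confluence and time therefore differ together between the states and cannot be told apart. Both states had 2 input (RNA-seq) libraries and 2 libraries of RNA immunoprecipitated (IP) with an antibody against m6A. The labels name no transgene or knockdown. The labels number the libraries of each state but do not say that they came from separate cultures. The limma p-values therefore rest only on spread between these libraries, taken over many genes rather than gene by gene. That spread may be technical.

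*Six4* and its relatives encode Sine oculis homeobox proteins, transcription factors with a homeodomain that bind control regions of muscle genes. Eya proteins do not bind DNA themselves. They join Sine oculis factors as coactivators and also carry a phosphatase activity. Pax3 is a paired-domain factor of the somite and of the muscle precursors that migrate into the limb, where Sine oculis and Eya proteins act on its gene. In adult muscle, these proteins are known for switching on fast-twitch and glycolytic genes. m6A is a methyl mark on adenosine inside mRNA, placed by a complex around METTL3 and often found near the stop codon in a short sequence context around GAC.

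Of the 8 genes, 5 had values above 0 and passed the filter on low values, and 3 were listed at 0. The table's unit is a normalized value, called TMM in the deposit. The columns share nearly the same sum, but a single row took 24.4% and 33.2% of it in GM against 41.3% and 25.6% in 3d DM, so that the other genes of 3d DM replicate 1 shared the smallest remainder. Reads could not be recovered from the table, and the depth of the libraries is unknown, so no counting error or detection limit is given. *Six2*, which encodes a factor of kidney and craniofacial progenitors, *Eya2*, which encodes a coactivator found in embryonic muscle, and *Pax3* were listed at 0 in all 4 input libraries, and none had a line in any peak list. They lie at chr17:85684277-85688274, chr2:165595032-165771727 and chr1:78101267-78197134 (mm10). Their 4 values were the same as those of 9262 rows of the table. Of 8213 genes with a symbol that were listed at 0 in all 4 libraries, 14 had a peak in at least 1 list. A listing at 0 is therefore given as a listing only, and no fold change was computed.

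The libraries matched their labels by the state markers. *Myh3*, the embryonic myosin heavy chain, had values of 1068 and 273 in GM replicates 1 and 2, against 33485 and 51674 in 3d DM replicates 1 and 2. *Mymk*, the fusion protein of myoblasts, rose by 4.82 on the log2 scale and *Ckm*, muscle creatine kinase, by 5.38. *Mki67*, a protein of dividing cells, fell by 2.63 (log2; adjusted p = 1.4e-08, limma). The 6 myoblast and myotube markers summed to 27277 and 12242 in GM, so that GM replicate 1 was the higher of its state, and to 77998 and 104285 in 3d DM. Markers of other cell types were at or near 0. The 4 adipocyte markers summed to at most 0.750 in a library, the 4 osteoblast markers to at most 9.61 and the 3 neural crest and glia markers to at most 15.7. *Adipoq*, *Plin1*, *Fabp4*, *Ibsp* and *Alpl* were listed at 0.

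*Eya1* was lower in 3d DM and *Eya4* was higher, while *Eya3* stayed the Eya gene with the highest value per kb of exon. In 3d DM replicate 2 this lead over *Eya4* was narrow (125 against 124 per kb) and depends on the exon lengths used. The uncorrected value of *Eya4* was the higher there (754 against 676). *Eya1* and *Eya4* were the only members called: 2 of the 5 tested, where 17.0% of all 11406 tested genes had an adjusted p under 0.05. In each direction the background was 7.01% higher and 9.96% lower in 3d DM. Differences below are of log2(value + 1), 3d DM minus GM, tested with limma and a Benjamini-Hochberg adjustment over all tested genes. The scale understates changes of genes with low values. In the main fit the standard errors came from the trend over all genes at the same level. There limma estimated an infinite number of prior degrees of freedom, so they do not measure a gene's own replicates. The fits after rescaling and without a 3d DM library had finite prior degrees of freedom. Their adjusted p-values therefore cannot be set directly beside those of the main fit. In bulk RNA, fewer cells with a transcript and less of it per cell cannot be told apart.

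*Eya1* (mm10, chr1:14168954-14310235, minus strand) encodes the Eya coactivator whose loss disturbs ear, kidney and early muscle development. Its values were 502 and 217 in GM replicates 1 and 2, against 105 and 108 in 3d DM replicates 1 and 2. Both GM libraries were above both 3d DM libraries, but the GM libraries were far apart from each other. The mean was 359 ± 202 in GM against 106 ± 2.73 in 3d DM (SD, n = 2 each). *Eya1* fell by 1.62 on the log2 scale (SE 0.48; adjusted p = 0.0061, limma). Without GM replicate 1, the GM library with the higher values of muscle markers, the difference was -1.02 and the call was lost (adjusted p = 0.53, limma). The call was also lost without 3d DM replicate 1 and without 3d DM replicate 2, at differences of -1.60 and -1.65, close to the -1.62 of all libraries. It held without GM replicate 2, where the difference was -2.23 (adjusted p = 0.027, limma). The part of the higher muscle markers in the result was not tested.

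*Eya4* (chr10:23102963-23350786, minus strand) encodes a coactivator known from inherited hearing loss and cardiomyopathy. It had values of 287 and 203 in GM replicates 1 and 2, against 416 and 754 in 3d DM replicates 1 and 2. The states did not overlap, and 3d DM replicate 2 stood well above its partner. The mean was 245 ± 59.7 in GM against 585 ± 239 in 3d DM (SD, n = 2 each). *Eya4* rose by 1.21 (log2; SE 0.45; adjusted p = 0.045, limma). This p was close to the threshold, and the call was lost without any 1 of the 4 libraries, with adjusted p between 0.11 and 0.67 and differences between 0.78 and 1.64 (limma).

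*Eya3* (chr4:132638987-132724765, plus strand), a widely expressed Eya gene, had values of 651 and 587 in GM against 469 and 676 in 3d DM. The 3d DM libraries lay on either side of both GM libraries. The difference was -0.13 (log2; SE 0.44; adjusted p = 0.90, limma), and its sign turned to 0.096 when the libraries were rescaled by the median of ratios. The same rescaling moved the median over all tested genes from -0.22 to 0.0055. The factors divided out (log2) were 0.23 and 0.0022 in GM replicates 1 and 2, against -0.36 and 0.14 in 3d DM replicates 1 and 2. The 3d DM libraries thus lay on either side of both GM libraries or between them, and only 3d DM replicate 1 was below both. Without 3d DM replicate 1 the median as deposited was 0.031, and with another library left out it ran from -0.47 to -0.11. With the rescaled values *Eya1* and *Eya4* kept their directions, with differences of -1.39 (adjusted p = 0.046, limma) and 1.44 (adjusted p = 0.0084, limma).

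**Figure D1:**
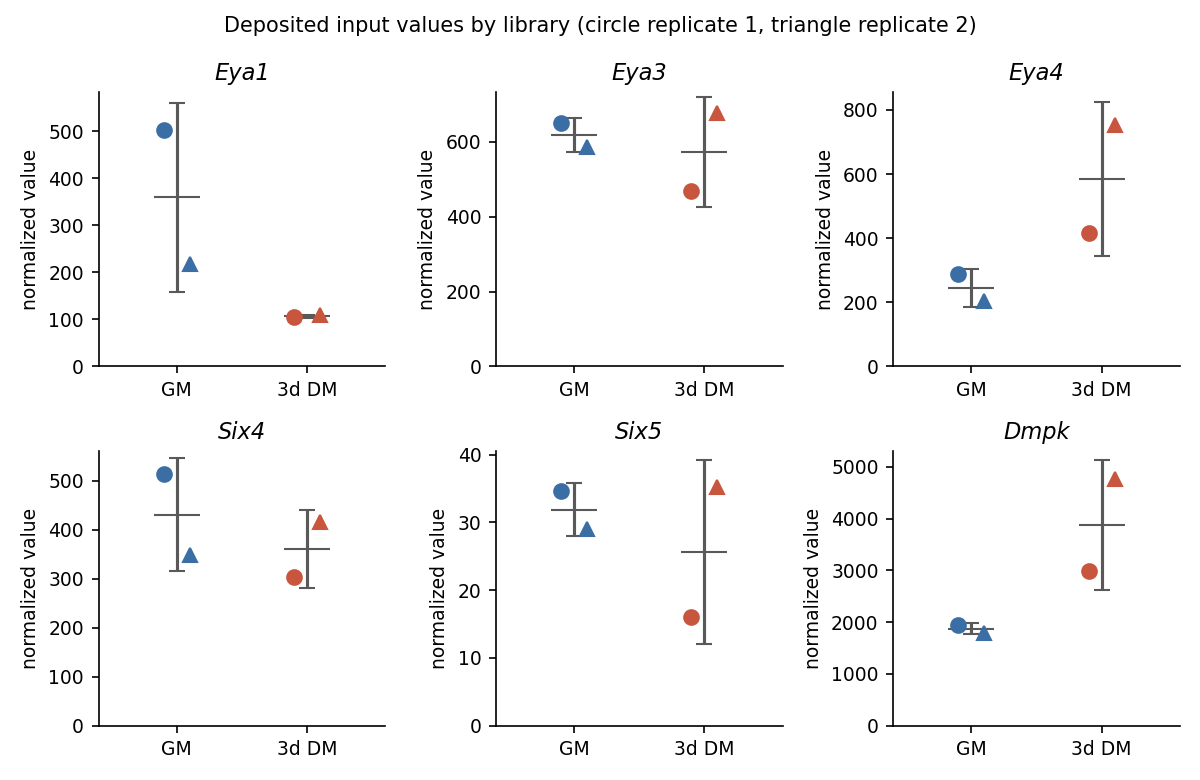
Normalized input values (y axis, deposited units, from 0) of the 5 members above 0 and of *Dmpk*, the neighbour of *Six5*, in GM (blue) and 3d DM (red). Circles are replicate 1, triangles replicate 2, and grey bars the mean ± SD of 2 libraries. Both 3d DM libraries lie under both GM libraries for *Eya1* and above them for *Eya4* and *Dmpk*, while the states overlap for *Eya3*, *Six4* and *Six5*.

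A ratio of 2 genes within a library does not depend on how that library was scaled. The ratios here are not corrected for length and are read only between libraries. The value of *Eya4* was 0.572 and 0.935 times that of *Eya1* in GM replicates 1 and 2, and 3.98 and 6.95 times in 3d DM replicates 1 and 2. *Eya4* over *Eya3* was 0.441 and 0.345 in GM against 0.886 and 1.12 in 3d DM. *Eya1* over *Eya3* was 0.771 and 0.369 in GM against 0.223 and 0.160 in 3d DM. In all 3 ratios the states did not overlap. These pairs were formed after the values were known, and the ratios are a description with no test. Per kb of exon, *Eya1* made up 38.8% and 24.4% of the summed Eya value in GM and 12.5% and 8.44% in 3d DM. *Eya4* made up 17.2% and 17.7% in GM against 38.5% and 45.6% in 3d DM. The share of *Eya3* was between 44.0% and 57.8% in every library. The sum of the 3 genes per kb was 274 and 188 in GM against 177 and 272 in 3d DM, so the states overlapped in the sum and differed in its make-up.

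**Figure D2:**
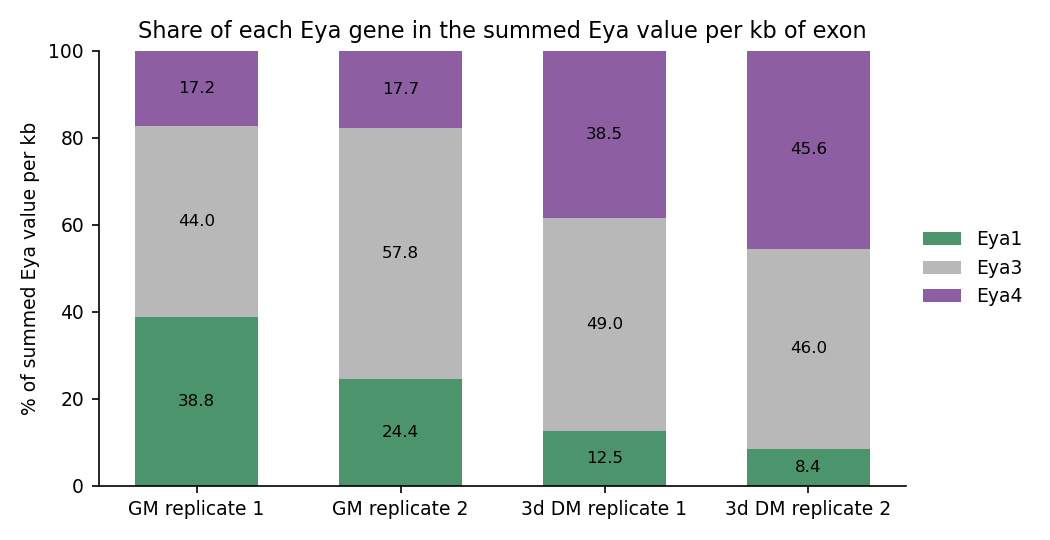
Share of *Eya1* (green), *Eya3* (grey) and *Eya4* (purple) in the summed Eya value per kb of exon (y axis, percent) in each input library (x axis). *Eya4* takes 17.2% and 17.7% in GM against 38.5% and 45.6% in 3d DM, while *Eya1* shrinks to 12.5% and 8.44% and *Eya3* holds at least 44.0% in every library.

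*Six4* (chr12:73099609-73113456, minus strand), a Sine oculis factor of the somite and of developing muscle, had values of 513 and 349 in GM against 304 and 417 in 3d DM. The states overlapped, and the difference was -0.25 (log2; SE 0.45; adjusted p = 0.81, limma). With the rescaled values it was -0.020. *Six5* (chr7:19094594-19098549, plus strand) lies next to *Dmpk*, whose human counterpart carries the expanded repeat of myotonic dystrophy at its 3′ end, close to the start of the neighbour. *Six5* was the lowest of the members above 0, at 34.7 and 29.1 in GM against 16.0 and 35.2 in 3d DM. Here too the states overlapped (difference -0.40; SE 0.63; adjusted p = 0.78, limma). *Dmpk*, the kinase gene that ends before *Six5* starts on the same strand, had 1952 and 1799 in GM against 2996 and 4767 in 3d DM. Both 3d DM libraries of *Dmpk* were above both GM libraries, but the difference of 1.01 missed the threshold as deposited (SE 0.41; adjusted p = 0.074, limma) and passed it after rescaling (1.24; adjusted p = 0.0069, limma). *Six5* over *Dmpk* was 0.0178 and 0.0162 in GM against 0.0053 and 0.0074 in 3d DM, lower in both 3d DM libraries.

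Per kb of merged exons, the levels in GM ran from *Eya3* (115 ± 8.34) over *Eya1* (76.2 ± 42.7), *Eya4* (40.3 ± 9.82) and *Six4* (39.7 ± 10.7) to *Six5* (10.6 ± 1.31; mean ± SD, n = 2). Of these neighbours, *Eya1* with *Eya4* and *Eya4* with *Six4* overlapped between libraries. In 3d DM the order of the levels per kb was *Eya3* (106 ± 27.1), *Eya4* (96.2 ± 39.3), *Six4* (33.2 ± 7.36), *Eya1* (22.6 ± 0.58) and *Six5* (8.52 ± 4.51; mean ± SD, n = 2). There *Eya3* and *Eya4* overlapped, and the other neighbours did not. The merged exons of *Six4* sum to 10855 nt, while its transcripts in the peak lists are 6402 and 6817 nt long. Its level per kb, and its nearness to *Eya4* in GM, therefore depend on the length used.

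The genes whose values followed a member most closely over the 4 input libraries were found by the distance between log2 deviations from each gene's own mean. Closest to *Eya3* were *Arhgef18*, *Cyp1b1* and *Ppp2r5e* (distances 0.022, 0.023 and 0.026). Closest to *Eya1* were *Meis2*, a homeobox gene, with 1075, 419, 201 and 240 in the same order of libraries, *Pde8a* and *Hmgn3* (distances 0.18, 0.19 and 0.21). Closest to *Eya4* were *Scx*, a tendon transcription factor gene, with 1035, 757, 1465 and 2690, *Klhl28* and *Itgb5* (distances 0.059, 0.11 and 0.12). With 4 libraries and 11406 genes, close patterns of this kind are a description only.

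Among 16 partners and cofactors of Sine oculis and Eya proteins, 14 were tested, 2 rose and none fell, a share near the 17.0% called over all tested genes, with a median difference of -0.086 (log2) beside -0.22 over all genes. *Sobp*, the mouse gene related to the fly's Sine oculis binding protein, had values of 91.9 and 22.1 in GM against 150 and 178 in 3d DM, a rise of 1.83 (log2; SE 0.52; adjusted p = 0.0046, limma). GM replicate 1 was again the GM library closer to 3d DM. *Tle4*, a Groucho corepressor, was at 13.6 and 18.1 in GM against 37.7 and 70.7 in 3d DM, a rise of 1.66 (SE 0.63; adjusted p = 0.049, limma). Both calls were lost when GM replicate 2 or either 3d DM library was left out, and that of *Tle4* also without GM replicate 1. *Dach1* and *Dach2*, the corepressors of the classical network of Sine oculis, Eya and Dach proteins, were listed at 0 in all libraries, and they are named here after their values were seen. Of 9 other Sine oculis and Pax genes, *Six3*, *Six6* and 7 Pax genes, none passed the filter. The highest value among them was 7.48, and 5 were listed at 0.

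Genes of the Pax3 limb and somite programme were lower in 3d DM or not called. Of 16 genes 11 were tested, 4 were called lower and none higher, where 9.96% of all tested genes were called lower and 7.01% higher. Of the tested genes not called, *Gab1* lay higher in both 3d DM libraries (difference 0.87) and *Foxc1* lower in both (-0.66). In the other uncalled genes the states overlapped. The median difference was -0.66 (log2) beside -0.22 over all genes. *Msc*, a basic helix-loop-helix repressor of myogenesis, had 83.1 and 56.2 in GM against 11.5 and 14.7 in 3d DM, and fell by 2.30 (SE 0.62; adjusted p = 0.0022, limma). *Foxc2*, a forkhead gene of the paraxial mesoderm, went from 164 and 325 to 46.2 and 63.6 and fell by 2.07 (SE 0.51; adjusted p = 0.00055, limma). *Zic1*, a zinc finger gene of the dorsal somite, went from 120 and 104 to 23.9 and 57.6 and fell by 1.56 (SE 0.55; adjusted p = 0.029, limma). *Met*, the receptor for hepatocyte growth factor and a target of Pax3 in limb precursors, had 1040 and 1202 in GM against 308 and 473 in 3d DM. It fell by 1.55 (log2; SE 0.44; adjusted p = 0.0038, limma). In all 4 genes both 3d DM libraries lay under both GM libraries. The 4 were picked as called falls, so this separation is no further support for them. *Pax3* was listed at 0 in both states of these cells, and control of the listed genes by Pax3 was not tested. Of the 4 calls, 2 were left without GM replicate 1, 1 without GM replicate 2, 1 without 3d DM replicate 2 and 0 without 3d DM replicate 1, where limma called 145 genes in all. In that last fit the adjusted p of the 4 genes ran from 0.12 to 0.40 (limma), and all but *Zic1* had an unadjusted p under 0.05.

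Fast-twitch and glycolytic genes, the group that Sine oculis and Eya proteins are known to control in adult muscle, rose in large part. All 14 were tested, 11 were called higher and none lower, where 7.01% of all tested genes were called higher and 9.96% lower. The list was chosen with earlier results of these data known, and it shares *Ckm* with the state markers. The part of Sine oculis and Eya proteins in the rise was not tested. The median difference was 4.87 (log2) beside -0.22 over all genes. *Tnni2*, fast troponin I, had 361 and 39.2 in GM against 7078 and 7042 in 3d DM, a rise of 5.87 (SE 0.43; adjusted p = 1.4e-39, limma). *Mylpf*, *Tnnc2* and *Tnnt3*, the fast regulatory light chain and the other fast troponins, rose by 5.75, 5.75 and 5.67. *Aldoa*, *Eno3* and *Gapdh*, the 3 that were not called, had differences of 0.090, 0.91 and -0.58. GM replicate 1 lay above GM replicate 2 in each of the 14 genes, and the list summed to 40751 and 25476 in GM against 137682 and 141828 in 3d DM. With any 1 library left out, the smallest differences were 4.28 for *Tnni2*, 4.64 for *Mylpf*, 4.72 for *Tnnc2* and 4.47 for *Tnnt3*. For *Actn3*, the called gene of the list with the smallest difference, it was 1.58. Fewer genes of the list were called without GM replicate 2 or either 3d DM library, and fewest without 3d DM replicate 1. Without 3d DM replicate 1 the calls of *Tnni2*, *Mylpf*, *Tnnc2* and *Tnnt3* were lost, and that of *Tnni2* also without 3d DM replicate 2. After rescaling, with all libraries, the adjusted p of *Tnni2* was 0.0079 (limma).

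**Figure D3:**
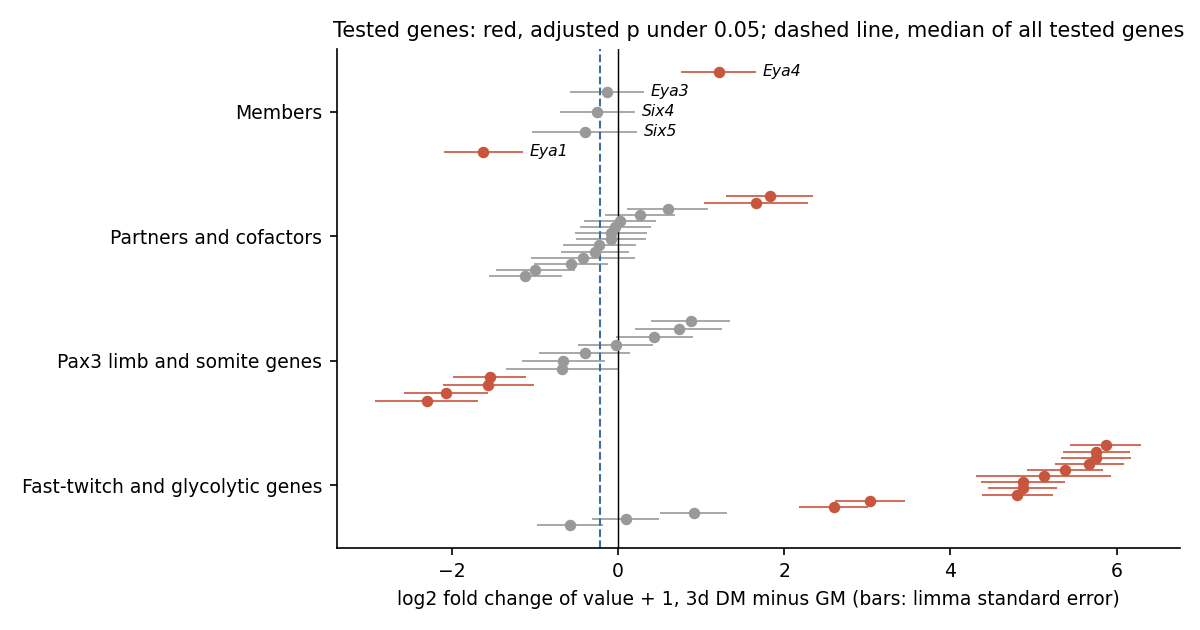
Log2 differences of value + 1, 3d DM minus GM (x axis), with limma standard errors, of the tested members and of the tested genes of 3 lists (rows). Red points have an adjusted p under 0.05, and the dashed line is the median of all tested genes (-0.22). The called fast-twitch genes lie between 2.59 and 5.87, *Eya4* lies at 1.21 and *Eya1* at -1.62.

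m6A peaks were found on the 5 members that had expression values, with at least 1 peak in at least 1 list, where 76.2% of tested genes had one. The authors called peaks with exomePeak for each IP library against its input, and each line of a list gives 1 transcript, a fold enrichment of IP over input, and a P value. Lines of 1 gene that shared at least 1 bp of exon were merged into a peak, and a library's value is the highest fold of its lines there. The members had 15 merged peaks in all. There were 8 and 5 merged peaks on members in GM replicates 1 and 2, on 5 and 3 genes. In 3d DM replicates 1 and 2 there were 11 and 3, on 5 and 2 genes. The replicates of a state differed more than the states did, with the lists of replicate 1 the longer in both. No read numbers are in the lists, so a peak that is missing from a list may lie under the caller's limit.

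*Six4* and *Eya4* were the 2 members with a peak in all 4 lists, where 42.6% of tested genes had one. On *Six4*, the merged peak at chr12:73103198-73103919 (mm10, minus strand) reached from the coding sequence (CDS) into the 3′ untranslated region (UTR). On the transcript with the longer CDS, only 3d DM replicate 1 had a line across the end of the CDS. Each other list had separate lines on the 2 sides of that end, joined only through this line. The bases common to all 4 lists lay within the CDS of that transcript. Its highest folds were 8.12 and 6.65 in GM against 13.8 and 4.68 in 3d DM, with both 3d DM values outside the range of GM (difference 0.13 on the log2 scale; two-sided exact permutation test, p = 1.0, n = 2 in each state). The *Six4* transcript with the longer CDS (ENSMUST00000043208.7) had at least 1 line there in each list, with highest folds of 6.71 and 6.65 in GM against 5.70 and 4.68 in 3d DM. On that transcript both 3d DM values were under both GM values (difference -0.37; two-sided exact permutation test, p = 0.33, the smallest that 2 libraries against 2 allow; n = 2 in each state). The choice of transcript thus turned the sign, and the restriction to 1 transcript was chosen after seeing the data. The fold of 13.8 came from the other transcript, ENSMUST00000175693.2, on which the same bases are annotated as 3′ UTR.

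On *Eya4*, the peak at chr10:23103382-23103742 (mm10, minus strand) lay far out in the 3′ UTR, with its start 2469 nt or more past the end of the CDS. Its folds were 3.85 and 2.53 in GM against 2.36 and 2.51 in 3d DM. The states did not overlap by a narrow margin (difference -0.36 on the log2 scale; two-sided exact permutation test, p = 0.33, n = 2 in each state), and 30.9% of all 6055 merged peaks in all 4 lists had states that did not overlap. The gene's input value moved the other way, since *Eya4* rose in 3d DM. Both IP libraries of replicate 2 called the same 121 bases.

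*Eya1* had a 3′ UTR peak at chr1:14170262-14170752 (mm10, minus strand) in 3 lists, with folds of 4.05 and 6.04 in GM against 12.7 in 3d DM replicate 1. It was missing from the list of 3d DM replicate 2, where *Eya1* had an input value of 108, about that of 3d DM replicate 1. *Eya3*, the highest member by value per kb, had peaks only in the lists of replicate 1, and not at the same place. GM replicate 1 had 1 in the 3′ UTR at chr4:132723623-132723716 (plus strand) with a fold of 3.64. 3d DM replicate 1 had 1 at chr4:132723353-132723507, also in the 3′ UTR, with a fold of 7.05, and 1 in the CDS with a fold of 2.27. *Six5* had 1 CDS peak in GM replicate 1 at chr7:19097388-19097448 (fold 9.62) and 1 across the end of the CDS in 3d DM replicate 1 at chr7:19097626-19097775 (fold 13.8). Its low input values, 34.7 and 16.0 in those libraries, stand beside these folds.

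Further upstream on *Six4*, a peak at the start of the CDS was listed in 3 libraries, with folds of 6.12 and 4.69 in GM against 5.64 in 3d DM replicate 1, though the lines of GM replicate 2 and 3d DM replicate 1 met only through those of GM replicate 1. A CDS peak at chr12:73108757-73109211 was listed in the same 3, with 3.69 and 4.54 in GM against 3.34 in 3d DM. 3d DM replicate 2 had a CDS peak of its own between them with a fold of 5.01. Peaks of *Eya4* in the CDS and near the start of the 3′ UTR, and an *Eya1* CDS peak, were each in 1 list of replicate 1, with folds of 5.47 in GM against 2.05, 3.51 and 3.35 in 3d DM. With a fold of at least 4, the lists held 4, 2, 4 and 1 members in the order GM replicates 1 and 2 and 3d DM replicates 1 and 2, and with a P value of at most 1e-05 they held 1, 2, 3 and 0.

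**Figure D4:**
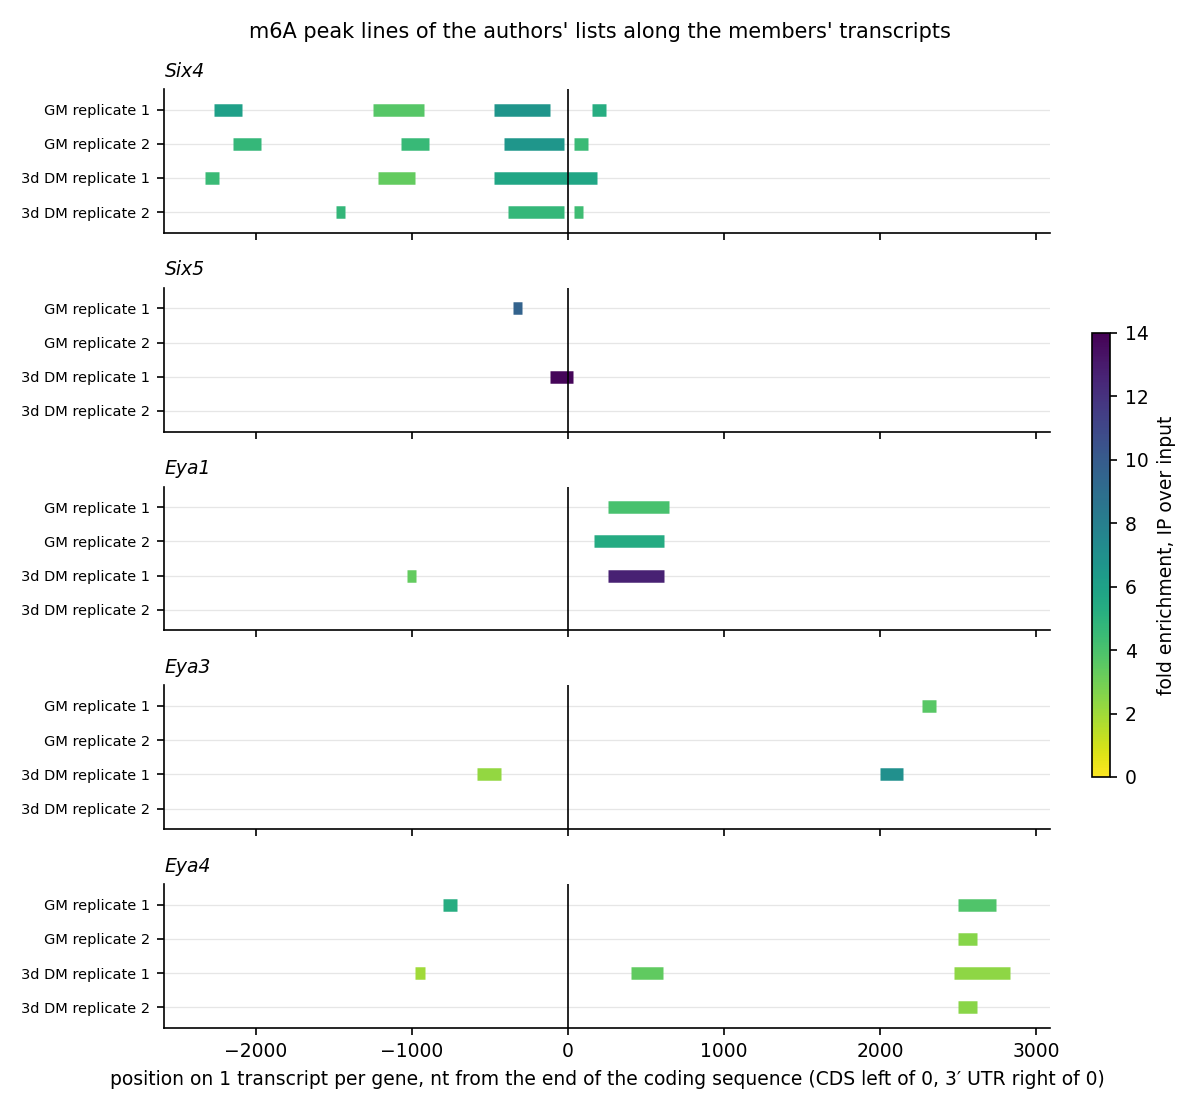
m6A peak lines of the 4 lists (rows) along 1 transcript of each of the 5 members with peaks. The x axis is the position in nt from the end of the CDS (vertical line), and the colour is the fold enrichment of IP over input. *Six4* has a line beside the end of the CDS in every list, *Eya4* has one between 2469 and 2829 nt past it in every list, and *Eya3* and *Six5* have lines only in the lists of replicate 1.

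The letters GGAC, the most used context of m6A, were searched on the transcript strand in the 15 merged peaks of the members, and 11 held at least 1. With AGAC and TGAC added, 12 did. These peaks were 61 to 722 nt long and no share of like windows was computed for them, so both counts are a description only. Then the stretches shared by all lists of a peak were searched. The 274 bases of *Six4* common to all 4 lists held no GGAC, where 64.3% of windows of that length on 10659 transcripts of tested genes held one. They held 2 AGAC and 1 TGAC, and 95.6% of windows of that length held at least 1 of the 3 contexts. The 121 bases of *Eya4* common to all 4 lists held no GGAC (37.6% of windows of that length did) and 1 AGAC (76.5% of windows held any of the 3). The 90 bases of the *Six4* CDS peak common to 3 lists held none of the 3, where 66.2% of windows of that length held at least 1. The 372 bases of *Eya1* common to 3 lists held 2 GGAC (74.5% of windows did). A match is not a mapped m6A base. The sequences below are from the mm10 genome, 5′ to 3′ on the transcript strand, with the searched letters in capitals and 10 bases on each side. They are shown because they lie in the peaks that recurred between libraries. The first 3 are the GGAC matches of the merged *Six4* peak around the end of the CDS. On the transcript with the longer CDS, the first and second lie in the CDS and the third in the 3′ UTR. The first and second were covered in GM replicate 2 and both 3d DM lists, and the third in both lists of replicate 1. The base that follows GGAC was not part of the search.
*Six4*, chr12:73103531-73103554, minus strand: agtacgtcctGGACggcatggttg
*Six4*, chr12:73103492-73103515, minus strand: acctgggaacGGACaaaaaagagc
*Six4*, chr12:73103257-73103280, minus strand: acacaggagtGGACctgcactgcc

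The AGAC and TGAC matches of *Six4* lie in the bases common to all 4 lists, the first and second of them overlapping by 4 bases of their flanks.
*Six4*, chr12:73103756-73103779, minus strand: ttccggggcaAGACctattgtccg
*Six4*, chr12:73103736-73103759, minus strand: tccggcccgaTGACccaggctgcc
*Six4*, chr12:73103555-73103578, minus strand: taatgatgttAGACtcgaaatcca

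Both GGAC matches of *Eya1* are in the 3′ UTR and were covered in all 3 lists that hold the peak. The AGAC of *Eya4* was covered in all 4 lists, while the GGAC of *Eya4* at the edge of that peak was covered in 3d DM replicate 1 only.
*Eya1*, chr1:14170512-14170535, minus strand: cgcgtcacctGGACaaccatggag
*Eya1*, chr1:14170331-14170354, minus strand: atagttgaagGGACaatagcataa
*Eya4*, chr10:23103664-23103687, minus strand: aaaacacatcAGACaaacagcaat
*Eya4*, chr10:23103700-23103723, minus strand: tcccaccttaGGACaggaaaatgc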

How the data were processed

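MeRIP-seq and RNA-seq libraries were prepared by the authors from C2C12 cells with a stranded mRNA kit. Per the labels, reads were aligned to mm10 with HISAT2 (2.1.0), and edgeR was used for expression. The deposited expression signal is a normalized value per Entrez gene, and the deposited peak lists give a fold (the ratio of IP over input) and a p-value per line. The threshold stated for peaks was 0.05. Their starts count from 0 and are given here from 1. No deposited column was left aside.

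Genes that reached 25.1, which is 2 cpm of a column's sum, in 2 or more input libraries were tested with limma (3.58.1, R 4.3.3; pseudocount 1, mean-variance trend). Symbols were matched for 98.7% of tested genes, and positions and exon lengths came from GENCODE release M21. The step was tested on simulated data. Tables were made in Python 3.11.15 (pandas 2.3.3, numpy 2.4.6) and plots in matplotlib 3.10.9. The members and all gene lists were chosen with earlier results of these data known. Genes named are the members, *Dmpk*, 4 state markers, the 4 largest called changes of each list and the 3 genes most alike to the highest and each called member. Other genes named, which are list genes outside this rule, were picked after their values were seen.
One result is not reported here.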

Additional observations from a re-analysis of the deposited data

How the results depend on the processing

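Leaving out 1 input library moved the count of 1936 called genes to between 145 (without 3d DM replicate 1) and 1252 (without GM replicate 1). The differences of the members then ranged from -2.23 to -1.02 for *Eya1*, 0.78 to 1.64 for *Eya4*, -0.53 to 0.026 for *Six4*, -0.94 to 0.14 for *Six5* and -0.40 to 0.13 for *Eya3* (log2), so *Six4*, *Six5* and *Eya3* have no stable sign. *Eya1* kept its call without GM replicate 2 (adjusted p = 0.027, limma) and lost it without each other library. Median-of-ratios rescaling gave 2644 called genes, 51.8% of them higher in 3d DM beside 41.3% as deposited, and 0.096 for *Eya3*.

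The call of *Eya4*, at an unchanged 1.21, was lost with a filter of 3 libraries (adjusted p = 0.054, limma), with no filter (0.051), without the trend (0.055) and with the replicate block (0.20). Its adjusted p ran from 0.0084 to 0.67 over all settings. With the replicate block 1298 genes were called and *Eya1* stayed called (adjusted p = 0.045, limma). Deviations of libraries with the same number correlated at 0.29 over genes, with only 2 pairs, so the libraries were taken to share only a number.

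Called partners and cofactors went from 2 to 1 with a filter of 3 libraries, no filter, pseudocount 0.1 or the replicate block (*Tle4* lost each time), and to between 0 and 1 with a library left out. After rescaling 2 were called, with *Hdac1* (lower, named after its values were seen) in place of *Sobp*. Called genes of the Pax3 programme went from 4 to 2 with the replicate block and to between 0 and 2 with a library left out, and those of the fast-twitch list from 11 to between 1 and 11. With P at most 1e-05, members with a peak went from 5 to 1 in GM replicate 1, from 5 to 3 in 3d DM replicate 1 and from 2 to 0 in 3d DM replicate 2, and a fold of at least 4 left 1 in the last. Neither limit left a value for the *Eya4* peak in both states. At the *Six4* peak the difference ranged from -0.65 to 0.91 over the settings run. The cause of these changes was not tested, and the unknown depth limits every absence of a peak or value.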
